A study of Oryza sativa with 24 samples.

Results

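Roots of the rice genotypes Dular and PB1, both raised under phosphate (Pi) deficiency, were compared across all 57258 non-control probe sets ("features") of a rice genome array. The members of the comparison were 6 of the series' 24 arrays, chosen by label: 3 arrays of Dular roots and 3 arrays of PB1 roots from 15-day-old seedlings grown in nutrient solution with 1 µM Pi (−Pi). Dular is a traditional genotype described by the study as tolerant of low Pi, and PB1 is a modern genotype described as sensitive. The other arrays carried roots of both genotypes at 320 µM Pi (+Pi) and shoots at both Pi levels, each group again with 3 arrays. Tissue and Pi level follow the sample titles and the study, although the deposited source names call the samples unstressed whole seedlings. All groups shared the same basal solution with chelated iron, and each RNA came from 3 seedlings pooled, so the spread between arrays is a spread between pools. Each genotype is 1 line, and a difference between them is a difference between these lines as grown here.

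The comparison asks how the root transcript profile of the tolerant genotype differed from that of the sensitive one when Pi was scarce. Plants short of Pi release the PHR transcription factors from SPX-domain inhibitors, and PHR factors then switch on Pi transporters, acid phosphatases and RNases, as well as enzymes that replace membrane phospholipids with galactolipids. Root iron uptake is tied to the same state, because phosphate and iron bind each other outside and inside the root. Grasses take up iron chiefly by making nicotianamine, converting it to phytosiderophores and importing the iron chelate through YSL transporters.

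Every value below is the authors' normalized log2 value, centred so that the median of each feature over the 24 arrays is 0. The values therefore hold differences between arrays but no absolute level, and whether a feature was above background on any array cannot be read from them. A difference is the Dular mean minus the PB1 mean on the log2 scale, given with its standard error, and it was called when limma's adjusted p was at most 0.05 and the difference at least 2-fold. The tissue is whole root, so fewer cells of a type and less RNA per cell cannot be told apart. A feature's value also depends on how well its probes match each genotype's own sequence, which was not examined.

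The 2 sets of roots differed widely. Of 57258 features, 8170 (14.3%) were called at −Pi, 3820 higher in Dular (6.67%) and 4350 lower (7.6%). The median over all features was 0.013, and the median size of a called difference was 1.84. Large differences lay more often on the lower side, with 207 features at least 5 log2 units higher in Dular and 477 at least 5 lower. The 3 Dular and 3 PB1 arrays did not overlap in 8104 of the 8170 called features, against 37% of all features. At +Pi, 7553 features (13.2%) were called between the same genotypes, 5.5% higher and 7.69% lower in Dular, and 5084 were called in the same direction at both Pi levels, which is 62.23% of the −Pi calls and 67.31% of the +Pi calls. In shoots at −Pi 6519 features (11.4%) were called, and 3179 of them shared their direction with the roots at −Pi. The interaction of genotype with Pi level, the difference at −Pi minus the difference at +Pi, passed adjusted p in 6696 features (11.7%), toward Dular in 6.45% and toward PB1 in 5.24% of all features. Of the 8170 features called in −Pi roots, 2244 passed the interaction too, and 1464 of these were not called at +Pi. In 111 features both Pi levels were called but in opposite directions, 56 of them higher in Dular at −Pi.

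**Figure D1:**
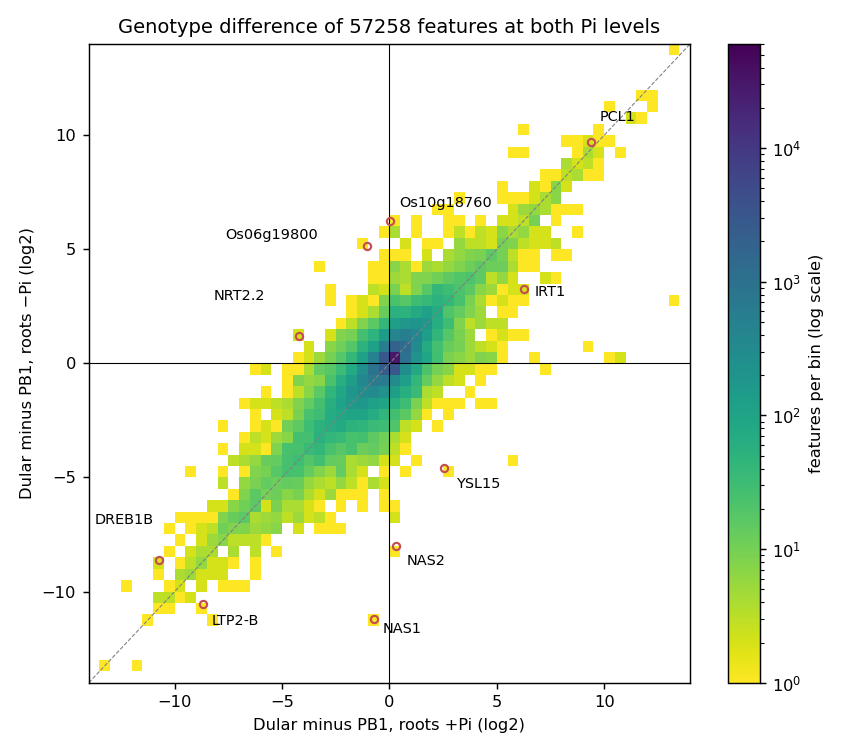
The map counts features by their Dular minus PB1 difference in roots at +Pi (x axis, log2) and at −Pi (y axis, log2), in bins of 0.5, with colour on a log scale and 10 named genes circled. Most large differences lie along the dashed line of equal difference, as for PCL1 (9.40 and 9.71), while NAS1 (−0.71 and −11.22), NAS2 (0.32 and −8.02) and Os10g18760 (0.04 and 6.26) lie near the vertical axis.

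The spiked hybridization control BioB set one limit. Its mean over 9 probe sets was −0.12, 0.02 and −0.12 on the Dular −Pi arrays and −4.50, −4.30 and −4.43 on the PB1 −Pi arrays, so Dular arrays were higher by 4.34 with no overlap (two-sided exact permutation p = 0.1, the smallest that 3 against 3 arrays can give). The same difference was 4.79 in +Pi roots and 0.17 in −Pi shoots. The other hybridization controls, BioC, BioD and Cre, differed between the −Pi roots by −0.10, −0.28 and −0.08. The poly(A) controls differed by −0.01 to 0.19 at −Pi and by 0.07 to 1.29 at +Pi. The part of these control differences in the gene results was not tested.

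A second limit was the array Dular −Pi 1. It lay more than 2 log2 units from both other Dular −Pi arrays, themselves within 1 of each other, in 156 features, against 22 and 36 for Dular −Pi 2 and 3. It lay above them in 146 of the 156, and 123 were called lower in Dular. Correlations between replicate arrays were 0.938 to 0.963 in Dular and 0.937 to 0.962 in PB1. Without this array 8085 features were called, 7724 of them among the 8170 and in the same direction.

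The largest difference among features with a product name fell on an iron gene. Nicotianamine synthase NAS1 read 0.00, 1.53 and 0.01 on the Dular −Pi arrays and 12.10, 10.47 and 12.63 on the PB1 −Pi arrays. All Dular arrays lay far below all PB1 arrays, with a difference of −11.22 ± 0.62 (limma adjusted p = 2.2e-10). At +Pi the genotypes did not pass the test (−0.71, adjusted p = 0.33), with means of 9.60 in Dular and 10.31 in PB1, and the interaction was −10.51 (adjusted p = 3.9e-07). NAS2, the second nicotianamine synthase, read 0.02, 1.05 and −0.11 in Dular and 9.17, 5.78 and 10.08 in PB1. It was lower in Dular, at −8.02 ± 0.92 (adjusted p = 2e-06), with 0.32 at +Pi and an interaction of −8.34 (adjusted p = 0.00032). The PB1 −Pi arrays had an SD of 1.13 for NAS1 and 2.27 for NAS2. The spread shared over all groups makes the standard errors and p values of both genes too small. NAS3 differed by −0.57 (adjusted p = 0.13), and NAAT1, the aminotransferase that acts on nicotianamine, by −1.35 (adjusted p = 0.31), so neither was called.

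The uptake genes of the same route followed. YSL15, which imports the iron phytosiderophore complex, read 0.28, 0.44 and 0.82 in Dular and 5.78, 3.00 and 6.51 in PB1. It was lower in Dular, at −4.58 ± 0.75 (adjusted p = 0.0001), whereas at +Pi it was higher in Dular by 2.54, and the interaction was −7.13 (adjusted p = 0.00021). The PB1 −Pi arrays had an SD of 1.86 for YSL15, so its standard error and p are too small as well. The bHLH factor IRO3, a regulator of the iron deficiency response, had the same turn, with −0.05, 0.05 and −0.41 in Dular and 1.03, 0.78 and 1.30 in PB1. Its difference was −1.18 ± 0.27 at −Pi (adjusted p = 0.0023) and 2.39 at +Pi. YSL16, a carrier of metal-nicotianamine complexes, was lower, at −0.86 at −Pi (adjusted p = 0.0011, under 2-fold) and higher by 0.93 at +Pi.

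Metal transporters were not uniform. NRAMP1 read 0.12, −0.01 and 0.01 in Dular and 1.99, 0.25 and 3.22 in PB1, a difference of −1.78 ± 0.57 (adjusted p = 0.025) against 3.33 at +Pi. The PB1 arrays spread over more than 2 log2 units, and the call did not hold when single arrays were left out (adjusted p up to 0.18; 0.052 without Dular −Pi 1). IRT1, the ferrous iron transporter, went the other way, reading 6.47, 6.73 and 6.38 in Dular and 3.62, 1.97 and 4.20 in PB1. It was higher in Dular by 3.27 ± 0.52 (adjusted p = 7.8e-05) and by more, 6.25, at +Pi. VIT1, which loads iron into the vacuole, was higher in Dular by 2.27 ± 0.21, with −0.70, −0.82 and −0.52 against −2.74, −3.28 and −2.82, and by 0.90 at +Pi. In NAS1, NAS2, YSL15, NRAMP1 and IRT1 the array PB1 −Pi 2 lay below PB1 −Pi 1 and 3.

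Of the 13 iron genes measured, 2 were thus called higher and 5 lower in Dular at −Pi (53.85%, against 14.3% of all features). Their median was −0.86 beside 0.013 over all features, and 9 passed the interaction, against 11.7% of all features. At +Pi 4 were higher and 2 lower, with a median of 0.35. Without Dular −Pi 1, the counts at −Pi were 2 and 4. NAS1, NAS2 and NAAT1 also made up part of a list of 5 genes of root-specific metabolism. Its mean value per array ran from 1.79 to 2.51 in Dular −Pi and 4.85 to 6.64 in PB1 −Pi. At +Pi it ran from 5.53 to 5.62 in Dular and 4.37 to 6.6 in PB1, and in −Pi shoots from −2.26 to −1.69. Only NAS1 and NAS2 were called, both lower. Of the 5, 2 were higher in Dular at an unadjusted limma p under 0.05, by at most 0.6. The mean therefore does not describe root-specific genes in general.

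**Figure D2:**
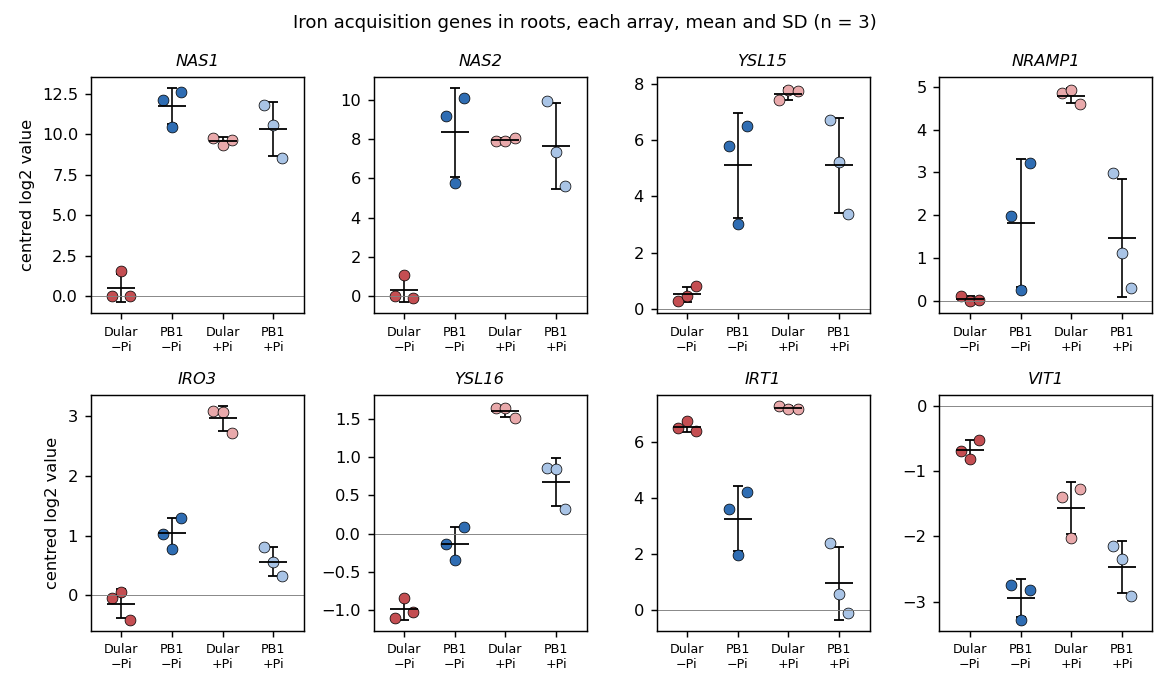
Centred log2 values (y axis) of 8 iron genes on each root array, by genotype and Pi level; points are arrays, bars are the mean and SD (n = 3). In NAS1, NAS2, YSL15, NRAMP1 and IRO3 the Dular −Pi arrays sit between −0.41 and 1.53, below the Dular +Pi arrays, and in IRT1 both Dular groups sit above both PB1 groups.

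The 8 SPX and PHR genes that signal Pi starvation differed much less than NAS1 and NAS2. SPX5, an SPX-domain inhibitor of PHR factors that Pi starvation induces, read 4.98, 5.37 and 5.44 in Dular and 3.97, 4.11 and 3.82 in PB1. It was higher in Dular by 1.30 ± 0.30 (adjusted p = 0.0024), with −0.52 at +Pi and an interaction of 1.82 (adjusted p = 0.0087). SPX1 read 2.47, 2.58 and 2.55 against 1.55, 1.71 and 1.47, a difference of 0.95 ± 0.13 that passed adjusted p (1.3e-05) but stayed under 2-fold. PHR3 was higher by 1.04 (adjusted p = 0.014, up to 0.061 when 1 array was left out). SPX2, SPX3, SPX4, PHR1 and PHR2 lay between 0.07 and 0.57. Of these 8 signalling genes 2 were called higher and none lower, with a median of 0.55, and at +Pi none was called. SPX4 and PHR1, like SPX1, passed limma's adjusted p (0.013 and 0.0027) but stayed under 2-fold.

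Among 11 Pi transport genes, 2 were called higher and 1 lower, with a median of 0.02. The 27.27% called stands beside 14.3% of all features and 5155 of 22436 features paired with 1 gene. PT2, a transporter that moves Pi toward the shoot, read 5.94, 5.86 and 5.94 in Dular and 4.86, 4.48 and 4.39 in PB1, higher by 1.34 ± 0.34 (adjusted p = 0.0057), and by 2.42 at +Pi. PT6, a high-affinity uptake transporter, read 6.61, 6.55 and 7.09 in Dular and 8.67, 8.82 and 8.26 in PB1. It was lower in Dular, at −1.83 ± 0.38 (adjusted p = 0.00096) with 0.12 at +Pi, so the PT2 and PT6 differences ran in opposite directions. PHO1;2 and PHO1;3, of the family that exports Pi into the xylem, differed by 0.05 and 0.36, PT4 by 0.32 and PT7 by −0.73, and PT3, PT8, PT11 and PT12 by 0.00 to 0.02. The remaining called feature (2.35) is paired with PT1 by the array annotation and with another locus by the study's gene list, so its gene is uncertain.

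Lipid genes were called in 19.05% of cases, against 14.3% of all features. All features include many without a gene name, and of the 22436 paired with 1 gene 5155 were called, a larger share than that of the lipid genes. MGD2, a galactolipid synthase, read 6.38, 6.14 and 6.39 in Dular and 4.74, 4.83 and 4.39 in PB1. It was higher in Dular by 1.65 ± 0.35 (adjusted p = 0.0013), with −0.07 at +Pi and an interaction of 1.72 (adjusted p = 0.033). A phospholipase C, Os03g30130, was higher by 1.52 ± 0.15, with 1.99, 1.85 and 1.82 against 0.44, 0.50 and 0.16, and a glycerophosphodiester phosphodiesterase, Os08g42390, by 1.39 ± 0.34. The acyltransferase gene Os05g38350 was lower, with −1.30 at −Pi and −2.94 at +Pi. Another phosphodiesterase, Os03g40670, differed by −0.28 at −Pi and −2.60 at +Pi. Of 21 lipid genes 3 were called higher and 1 lower, with a median of 0.30, against 2 and 3 with −0.17 at +Pi. Most of them entered the list only through the study's list of genes that rose in Dular roots at −Pi. A shift toward Dular at −Pi is therefore partly built into these counts. A further phospholipase C gene that the study gives as lower in Dular in these roots was not in the list. MGD1 and MGD3, the other galactolipid synthases measured, differed by −0.61 and −0.87, both below 2-fold.

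Genes listed as acid phosphatases, enzymes that free Pi from organic esters, were mixed, and not all are described as such. Os10g02750, described as a Ser/Thr protein phosphatase family protein, read 9.99, 9.81 and 9.71 in Dular and 8.22, 8.84 and 7.80 in PB1. It was higher by 1.55 ± 0.15 (adjusted p = 3.5e-07), against 0.04 at +Pi, though the SD of the PB1 −Pi arrays was 0.52. The purple acid phosphatase Os08g17784 read 0.42, 0.35 and 0.23 in Dular and 5.83, 6.16 and 5.87 in PB1, lower, at −5.62 ± 0.32. Its other feature was higher in Dular by 1.34, so the features of this gene disagree. PAP2, listed here by its symbol alone and with no product description, was lower, at −1.67, and at −1.87 at +Pi. The symbol does not settle whether PAP2 is an acid phosphatase, so its place in this list is uncertain. The phosphocholine phosphatase gene Os01g52230 differed by −0.60 at −Pi and −4.13 at +Pi. The 3 RNase genes lay between 0.39 and 0.61, all under 2-fold, so none was called. Os01g67180 and Os01g67190 still passed limma's adjusted p (0.02 and 0.014).

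Phosphate-sparing steps of carbon metabolism differed with the Pi level. The phosphoenolpyruvate carboxylase gene Os09g14670 read 1.98, 1.89 and 2.03 in Dular and 1.05, 0.99 and 0.36 in PB1, higher by 1.17 ± 0.30 (adjusted p = 0.0061). At +Pi it was lower in Dular, at −2.79, and the interaction was 3.96 (adjusted p = 8.2e-06). The malate dehydrogenase gene Os04g46560 was higher by 1.41 and the citrate transporter gene Os10g31040 differed by 0.06 at −Pi and −2.53 at +Pi. The pyrophosphate-dependent phosphofructokinase gene Os06g22060 was lower, with −1.34 at −Pi and −2.75 at +Pi, while Os02g48360, described as the same subunit, was higher by 0.88 at −Pi (adjusted p = 0.0079, under 2-fold). PPDK2, pyruvate phosphate dikinase, was lower, at −2.86. Of the 8 genes, 2 were called in each direction at −Pi, against 5 lower and none higher at +Pi. Most of them also entered through the study's list of genes that rose in Dular roots at −Pi, so this shift is partly built in.

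**Figure D3:**
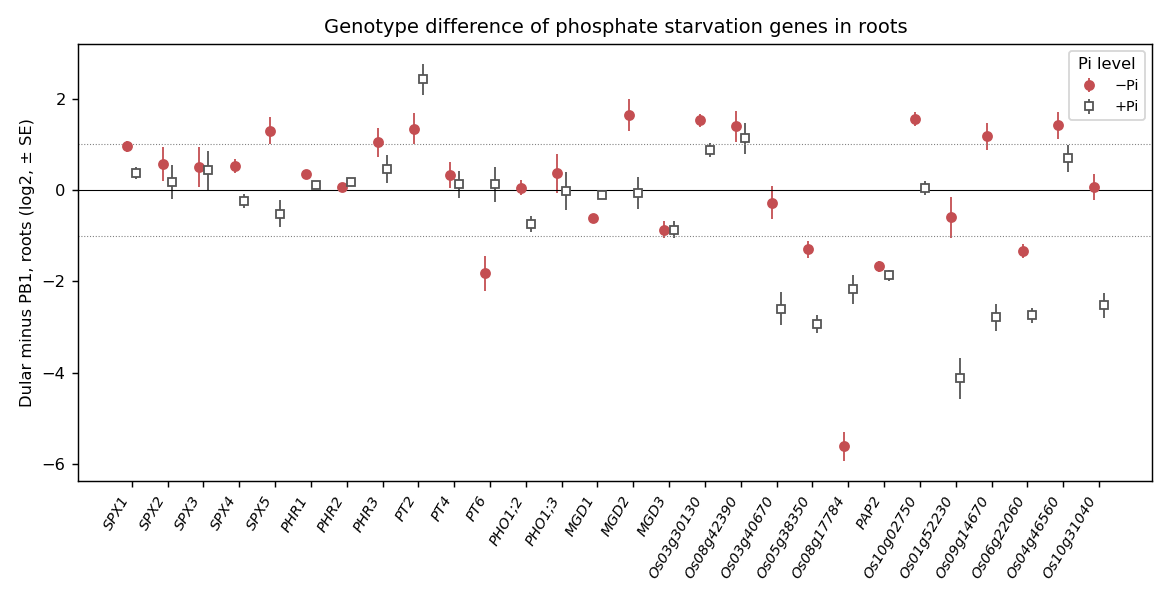
Dular minus PB1 difference in roots (y axis, log2, ± SE from the fit, n = 3 arrays a group) for 28 genes from the Pi starvation lists at −Pi (filled circles) and +Pi (open squares). Dotted lines mark 2-fold, and PAP2 is included by its symbol alone. SPX5 and MGD2 are above the 2-fold line at −Pi alone, PT6 below it at −Pi alone, and Os09g14670 lies above 0 at −Pi and below 0 at +Pi.

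Among nitrogen transporters the direction turned with the Pi level in NRT2.2. NRT2.2, a high-affinity nitrate transporter, read 1.08, 1.26 and 1.45 in Dular and 0.20, 0.01 and 0.00 in PB1, higher by 1.19 ± 0.17 (adjusted p = 2.1e-05). At +Pi it was lower in Dular, at −4.19, and the interaction was 5.39 (adjusted p = 2.5e-10). The ammonium transporter AMT2-2 read 4.16, 4.46 and 4.26 against 1.33, 1.86 and 2.38 and was higher by 2.43 ± 0.29. AMT2-3 was lower, at −3.64 ± 0.23, with all 3 Dular arrays between −0.06 and −0.01 and the PB1 arrays at 3.66, 3.76 and 3.37. AMT3-3 was higher by 1.21, and the calls of AMT3-2 (1.05) and of the nitrate transport partner NAR2.2 (1.04) were lost when single arrays were left out (adjusted p up to 0.14 and 0.22). Of 18 nitrogen genes 5 were higher and 2 lower at −Pi, against 1 and 7 at +Pi. The 38.89% called at −Pi stands beside 14.3% of all features.

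Potassium and sodium transport genes counted 3 higher and 4 lower of 26 (26.92%), against 5155 of 22436 features paired with 1 gene. HKT1.5, a sodium transporter, was higher by 1.74 ± 0.20 and the vacuolar channel gene TPKA was lower, at −2.38. Of 25 aquaporins, the channels for water and small solutes, 2 were higher and 1 lower, led by TIP4;1 (2.53 ± 0.17, and 2.54 at +Pi), whose other feature differed by 0.38. The zinc transporter ZIP3 read −4.58, −3.97 and −4.06 in Dular and 1.75, 1.94 and 2.32 in PB1, lower, at −6.21 ± 0.86, while in −Pi shoots it was higher in Dular by 5.86. ZIP5 was higher by 1.61 in −Pi roots and differed by −0.86 at +Pi. The ZIP family, 8 genes with 2 higher and 1 lower, was chosen for description after its values were seen.

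Cell wall genes differed in both directions, with the 3 secondary wall cellulose synthases on the higher side. CESA4, CESA7 and CESA9, which make the cellulose of secondary walls, were higher in Dular, by 1.23 ± 0.26, 1.66 ± 0.26 and 1.5 ± 0.39. CESA7 read 1.24, 1.31 and 1.15 in Dular and −0.44, −0.28 and −0.55 in PB1. At +Pi these 3 genes differed by 0.67, 0.96 and 0.77, each under 2-fold, and none of the 3 passed the interaction (adjusted p = 0.18 to 0.33). CSLF7, of the family that makes mixed-linkage glucan, read 1.51, 2.32 and 2.53 in Dular and −0.01, 0.01 and 0.00 in PB1. It was higher by 2.12 ± 0.29, with an interaction of 1.38 (adjusted p = 0.036). CSLD5 (2.82) and CSLC2 (2.59) were also higher, and CSLA9 (−2.74), CSLD2 (−2.22), CSLD1 (−2.19), CSLC9 (−1.66) and CSLC7 (−1.26) were lower, so the 28 genes of the superfamily counted 6 higher and 5 lower, with a median of 0.22.

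Laccases, which polymerize lignin, counted 4 higher and none lower of 9 by limma (the same counts at an unadjusted p under 0.05), with a median of 0.33 and a lowest value of −1.84. LAC4 read 1.02, 0.75 and 0.77 in Dular and −1.63, −1.60 and −1.45 in PB1, higher by 2.41 ± 0.42 with 0.19 at +Pi (interaction adjusted p = 0.021). LAC7 was higher by 1.99, LAC3 by 1.31 with −1.09 at +Pi, and LAC23 by 1.23. At +Pi the list counted 1 higher and 2 lower. Of 29 expansins, proteins that loosen walls, 7 were higher and 3 lower. EXPB8 read 5.62, 4.20 and 5.69 in Dular and 2.12, 0.94 and 0.57 in PB1 (3.96 ± 0.43), and EXPA6 read −4.44, −5.14 and −4.89 against −0.95, −0.45 and 0.33 (−4.47 ± 0.51). Both expansins kept their direction at +Pi, at 3.10 and −4.68. The xyloglucan-modifying XTH8 was higher by 1.94 and the family 16 glycosyl hydrolase Os04g51460 lower, at −7.93. In the latter Dular −Pi 1 read −0.55 and the other Dular arrays −6.23 and −6.90, and without it the difference was −9.94.

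Cold and drought response factors were mostly lower in Dular. Of 5 DREB1 factors, which activate cold and drought genes, 4 were lower in Dular, with a list median of −6.74. DREB1B read −1.61, −8.28 and −7.74 in Dular and 2.62, 2.96 and 2.64 in PB1, lower, at −8.62 ± 1.18 (adjusted p = 1.6e-05). DREB1G read −0.69, −9.02 and −8.56 against 2.74, 2.43 and 2.40, lower, at −8.61 ± 1.62 (adjusted p = 0.0004). In both, Dular −Pi 1 stood between the other Dular arrays and PB1, and without it the differences were −10.75 and −11.31. DREB1A and DREB1E were lower, at −6.74 and −5.79 (−8.57 and −7.19 without that array), while DREB1C differed by 0.01. At +Pi DREB1A, DREB1B, DREB1E and DREB1G were lower too, with a median of −9.16. The dehydration-responsive element-binding genes Os01g73770 and Os06g03670 were lower, at −7.91 and −7.12, and Dular −Pi 1 was again above the other Dular arrays in both (6.19 against −0.43 and −0.40; 2.25 against −6.36 and −6.19). Without it they were lower at −10.11 and −9.97.

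Jasmonate genes were mostly lower as well. JAZ proteins, the repressors that jasmonate itself induces, were led by JAZ9, which read 0.85, −4.02 and −5.26 in Dular and 3.95, 3.96 and 3.78 in PB1. It was lower, at −6.71 ± 1.27 (adjusted p = 0.00041), or at −8.54 without Dular −Pi 1. JAZ10 read −0.47, −4.25 and −4.39 against 3.13, 3.29 and 3.19 (−6.24 ± 0.95, or −7.53 without Dular −Pi 1). JAZ13, JAZ11, JAZ12, JAZ6, JAZ4 and JAZ8 were lower, at −6.33 to −2.59 (−7.80 to −2.87 without it), and JAZ5 was lower at −3.12 with adjusted p up to 0.099 when 1 array was left out. The allene oxide synthase AOS1, an early step of jasmonate synthesis, read 0.96, −0.49 and −0.20 against 3.25, 3.35 and 3.19, lower, at −3.17 ± 0.37. AOC was lower, at −1.19, and the reductase gene OPR6 at −3.15 with −0.54 at +Pi (interaction adjusted p = 0.00015). AOS4 (2.01) and OPR8 (1.26) were higher, and the receptor gene COI1 differed by 0.02.

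Of 34 jasmonate genes 2 were higher and 18 lower (58.82%, against 14.3% of all features), with a median of −1.46. Without Dular −Pi 1 the counts were again 2 and 18. At +Pi 3 were higher and 14 lower, with a median of −0.45, and 2 of the 34 passed the interaction. WRKY71, a stress-induced factor, read −0.40, −3.57 and −3.94 against 2.05, 1.99 and 2.02 (−4.65 ± 0.73, or −5.77 without Dular −Pi 1). WRKY24 was lower, at −4.87, and WRKY76 at −4.21 (adjusted p = 0.029; 0.083 without Dular −Pi 1). These made 3 lower of 6 WRKY genes, and 2 without that array. The C2H2 zinc finger gene Os03g60570 read −0.59, −4.97 and −4.79 against 3.69, 4.83 and 4.28, lower, at −7.72 and at −9.14 without Dular −Pi 1.

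**Figure D4:**
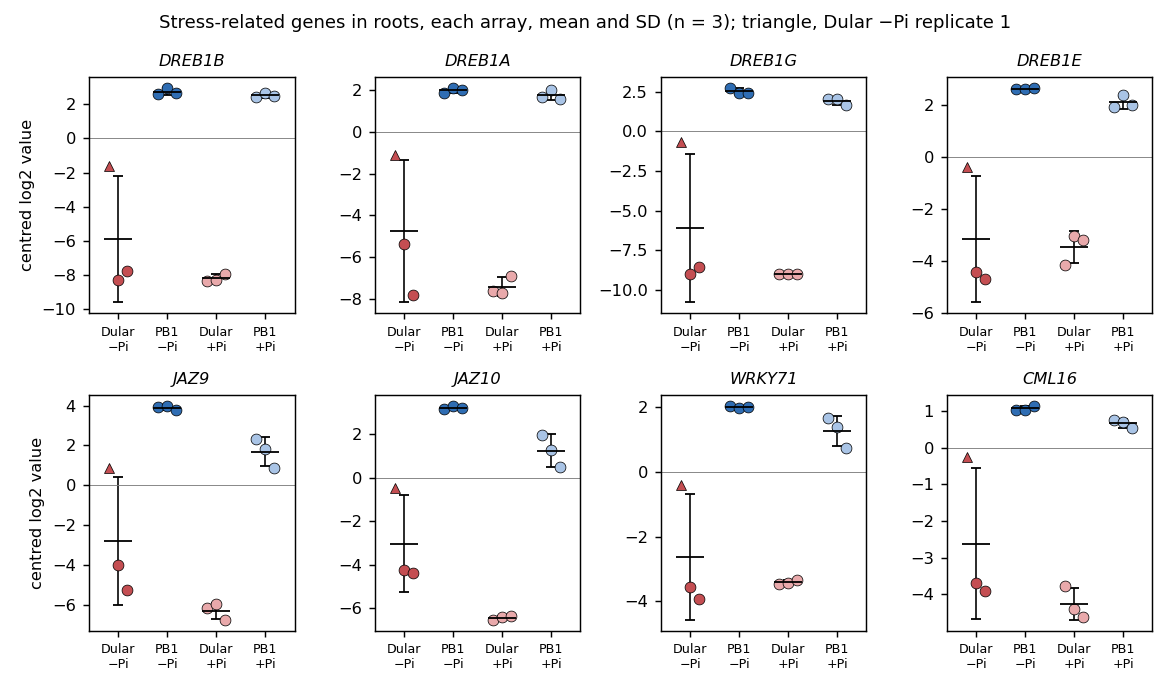
Centred log2 values (y axis) of 8 stress-related genes on each root array; points are arrays, bars are the mean and SD (n = 3), and the triangle is Dular −Pi 1. In all 8 genes the triangle lies above the other 2 Dular −Pi arrays and below all PB1 −Pi arrays, and the Dular +Pi arrays are low without such an array.

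Other stress and defence groups were less one-sided. The chitinase Cht1 read 4.53, 2.98 and 3.24 in Dular and 10.60, 10.88 and 10.22 in PB1, lower, at −6.98 ± 0.33, and 2 of 14 pathogenesis-related and chitinase genes were higher and 3 lower. CYP76M7, of diterpenoid phytoalexin synthesis, was lower, with −6.68 ± 0.86 at −Pi and −6.77 at +Pi, but of 17 genes of that pathway only CYP76M7 was called lower and 1 higher. Heat shock genes counted 4 higher and 13 lower of 43, with a median of −0.01, and 3 and 11 without Dular −Pi 1. The small heat shock protein HSP16.9A was lower, at −4.66, and HSFA3, a heat shock factor, at −4.22 (−5.62 without that array), whereas HSFC1B was higher by 3.69 and by 5.31 at +Pi. Sensor and signalling families were also described after their values were seen. Calmodulin-like genes counted 2 higher and 10 lower of 23, PP2C phosphatases 4 and 16 of 55, and CIPK kinases 2 and 7 of 24. CML17 ran against its family, higher by 2.47 ± 0.20 at −Pi with −0.04 at +Pi (interaction adjusted p = 1.5e-05).

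Green tissue genes called in Dular roots at −Pi were all lower, while those called at +Pi were split. Rubisco activase, RCA, read −7.47, −7.39 and −7.97 in Dular and −2.15, −2.33 and −2.45 in PB1, lower, at −5.30 ± 0.17 (adjusted p = 6.7e-14), and at −2.2 at +Pi. The light-harvesting protein gene RCABP89 read −3.53, −3.17 and −2.99 against −1.10, −0.80 and −0.97, lower, at −2.27 ± 0.12, with 0.57 at +Pi. Of 8 such markers 4 were lower and none higher, by limma, with a median of −1.10 (7 lower and none higher at an unadjusted p under 0.05), and 6 passed the interaction. At +Pi 2 were higher and 2 lower, with a median of 0.60. The mean of the 8 per array ran from −3.06 to −2.88 in Dular −Pi, −1.46 to −1.26 in PB1 −Pi, −1.45 to −1.16 in Dular +Pi and −1.38 to −1.27 in PB1 +Pi, against 0.75 to 1.12 in −Pi shoots. The Dular −Pi roots thus stood below the other root groups, and the part of shoot-type RNA in other results was not tested. A set of 15 plastid enzyme genes, added after their values were seen, counted 7 lower and none higher at −Pi by limma (10 and none at an unadjusted p under 0.05) and 1 lower and 5 higher at +Pi, with APX8, a chloroplast ascorbate peroxidase, at −2.60 and LFNR1, a ferredoxin reductase, at −1.31 against 1.55 at +Pi. GLN2, plastid glutamine synthetase, differed by −2.47 on 1 feature and by 2.00 on its other.

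Among the largest differences with a product name on the lower side were OSH1 and YABBY2, genes known from shoot and leaf development. The meristem homeobox gene OSH1 read −0.05, −0.02 and 0.00 in Dular and 7.93, 7.91 and 8.21 in PB1, lower, with −8.04 ± 1.23 at −Pi and −7.30 at +Pi, and its other feature was lower, at −7.70. YABBY2, a leaf polarity factor, read −8.21, −8.20 and −8.0 against −1.44, −1.25 and −0.23, lower, with −7.16 ± 0.52 at −Pi and −6.0 at +Pi. YABBY5 and YABBY6 were lower, at −4.74 and −5.55, and YABBY7 at −2.84 with adjusted p up to 0.07 when 1 array was left out. The YABBY family, gathered after its values were seen, counted 4 lower and none higher of 6 by limma (the same counts at an unadjusted p under 0.05), with a highest value of 0.01. The lipid transfer protein LTP2-B read −11.80, −11.75 and −11.73 against −1.53, −1.24 and −0.81, lower, at −10.56 ± 0.27, and its other features ranged from −10.2 to −2.15. The apyrase APY3 was lower, at −9.56 ± 0.42, the ethylene-forming oxidase ACO1 at −7.41 ± 1.46 and the CASP-like protein CASPL1D1 at −7.42. In −Pi shoots the Dular and PB1 means were 0.80 and 0.64 for YABBY2 and 1.05 and 1.11 for LTP2-B, above the root values of both genotypes.

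Few of the genes listed for root layers were markers of a single layer. CASP1, a protein of the Casparian strip, read 4.83, 4.93 and 4.78 in Dular and 3.91, 3.70 and 3.15 in PB1, higher by 1.26. Of 16 genes listed for endodermis and stele 2 were higher and 1 lower, the sugar exporter SWEET11 (−5.05). Most of that list are SWEET sugar transporters, taken in by family name, so its counts do not describe those layers. The single root hair marker measured, the cellulose synthase-like gene CSLD1, was lower, at −2.19. Reference genes (actin, ubiquitin, elongation factor, tubulin and glyceraldehyde phosphate dehydrogenase) counted 2 higher and none lower of 22 by limma (13 and 2 at an unadjusted p under 0.05), with a median of 0.27. The 2 were the tubulins TUBB8 (2.35) and TUBB4 (1.30), though other features of TUBB4 lay between 0.09 and 0.84. None of 27 general growth genes was called, since all their differences, from −0.97 to 0.69, were under 2-fold. At an unadjusted p under 0.05, 18 were higher and 2 lower, with a median of 0.35.

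Auxin and cytokinin genes were called in both directions. SAUR39, a negative regulator of auxin synthesis and transport in rice, read −0.04, 0.71 and 0.52 in Dular and −6.17, −6.94 and −6.81 in PB1. It was higher by 7.04 ± 0.37 (adjusted p = 9.3e-11) and by 3.16 at +Pi, with an interaction of 3.88. The auxin exporter PIN3a read −4.0, −3.21 and −4.22 against −0.83, −0.55 and 0.25, lower, at −3.43 ± 0.46, and the auxin-conjugating enzymes GH3-8 and GH3.1 were lower, at −2.63 and −2.15. Of 59 auxin genes 3 were higher and 7 lower, with a median of −0.14. The 16.95% called lies near the 14.3% of all features and below the share among features paired with 1 gene (5155 of 22436). The cytokinin-activating enzyme LOGL9 read −2.38, −3.65 and −3.14 against 1.33, 0.67 and 0.79, lower, at −3.99 ± 0.46, and LOGL10, LOGL3 and LOG were lower, at −3.44, −3.01 and −2.16, though another feature of LOG differed by 0.05. The cytokinin oxidases CKX5 and CKX4, which degrade the hormone, were lower too, at −2.19 and −2.07. Of 29 cytokinin genes 2 were higher and 8 lower, with a median of 0.01.

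Abscisic acid and strigolactone genes split. SAPK9, a kinase of abscisic acid signalling, read 2.25, 2.56 and 2.56 in Dular and −1.23, −1.60 and −1.5 in PB1, higher by 3.90 ± 0.17 and by 4.34 at +Pi. The abscisic acid 8′-hydroxylase ABA8OX1, which inactivates the hormone, was lower, at −3.79 ± 0.46. D3, an F-box protein of strigolactone signalling, was higher by 2.60 ± 0.33, and CCD7, a dioxygenase of strigolactone synthesis, read 1.55, 1.40 and 1.35 against 3.35, 2.96 and 3.07, lower, at −1.69 ± 0.26. The gibberellin synthesis genes CPS1 and KAO were lower, at −2.35 and −1.34.

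Detoxification and developmental families followed. The glutathione S-transferases GSTF1, GSTU6 and GSTZ3, which conjugate toxins and oxidation products, were lower, at −4.49, −1.49 and −1.26, making 3 lower and none higher of 6 by limma (4 and none at an unadjusted p under 0.05). The chitinase Cht5 read −7.13, −7.12 and −7.11 in Dular and −2.48, −0.85 and 0.18 in PB1, and the xylanase inhibitor RIXI was higher by 1.63. MT2C, a metallothionein that binds metals, read −1.93, −1.56 and −1.55 against 1.17, 1.13 and 0.99 and was the 1 gene of 7 metallothioneins called, lower at −2.77 ± 0.19. Cytochrome P450 genes counted 5 higher and 7 lower of 29. Among them CYP85A1, of brassinosteroid synthesis, was higher by 1.78 ± 0.10, with 1.77, 1.83 and 1.70 in Dular and −0.03, 0.10 and −0.09 in PB1, and CYP724B1, of the same pathway, by 1.24 ± 0.18.

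MADS-box factors, best known from flowering, counted 2 higher and 5 lower of 31. The 22.58% called lies near the share among features paired with 1 gene (5155 of 22436). MADS56 and MADS50, flowering time regulators, were higher by 3.02 ± 0.63 and 1.15 ± 0.26. MADS16, a floral organ factor, read 0.09, 0.08 and 0.15 in Dular and 3.03, 3.19 and 2.95 in PB1 and was lower at −2.95 ± 0.15, while MADS14 (−1.30) and MADS26 (−1.24) lost the call without single arrays (adjusted p up to 0.069 and 0.065). Of 32 homeobox genes 3 were higher, HOX8 (1.61), HOX2 (1.57) and HOX7 (1.04), and 4 lower, OSH1, ROC1 (−4.57), OSH6 (−1.90) and OSH3 (−1.43). HOX7 differed by −0.16 at +Pi. The 21.88% of homeobox genes called lies near the same share.

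Several of the largest differences with a product name on the higher side were shared with +Pi roots. PCL1, a clock gene, read 3.01, 3.30 and 3.00 in Dular and −6.94, −6.08 and −6.81 in PB1, higher by 9.71 ± 0.65, by 9.40 at +Pi and by 8.79 in −Pi shoots. Os03g63250, described as a Golgi protein, was higher by 8.93 ± 0.11 and by 8.32 at +Pi, and the nuclease gene BBD1 by 6.82 and 6.74. The histone-like factor gene Os10g11580 read 8.01, 7.75 and 7.95 against −0.02, −0.05 and −0.01, higher by 7.93 ± 0.10 and by 5.42 at +Pi, with 0.01 in −Pi shoots.

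Other large differences in the −Pi roots were smaller or turned at +Pi. The Os-numbered genes below take their descriptions from the study's list of genes that rose in Dular roots at −Pi. Naming by that list favours a high Dular value at −Pi and a smaller difference at +Pi. The dirigent gene Os10g18760, of a family that guides lignan coupling, read 6.30, 6.73 and 5.74 in Dular and −0.01, 0.01 and 0.00 in PB1. It was higher by 6.26 ± 0.14 (adjusted p = 4.9e-16) against 0.04 at +Pi and 0.01 in −Pi shoots. The 3 Dular −Pi arrays had an SD of 0.5, while the other root groups were flat near 0, which makes this standard error and p too small. Os12g12000, a RALF peptide gene (RALFL46), read 5.03, 6.07 and 6.35 against −0.08, −0.06 and −0.11, higher by 5.90 ± 0.82 with 1.01 at +Pi (interaction adjusted p = 0.01). In −Pi shoots it was also higher in Dular, by 2.85 (adjusted p = 0.015). The BURP-domain gene Os06g19800 read 7.61, 6.78 and 6.33 against 2.60, 2.03 and 0.64, higher by 5.15 ± 0.64 with −1.03 at +Pi (interaction adjusted p = 0.00019), where the means were 2.12 in Dular and 3.15 in PB1. Os04g47360, a putative prolyl oligopeptidase gene, was higher by 3.17 ± 0.80 at −Pi and lower, at −2.70, at +Pi, and in −Pi shoots it was higher by 2.46 (adjusted p = 0.03). The germin-like gene GER3 ran the other way, reading 0.76, 1.72 and 0.22 in Dular and 3.56, 3.53 and 3.50 in PB1, with a difference of −2.63 ± 0.40 at −Pi and 2.05 at +Pi (interaction −4.68, adjusted p = 2.6e-05).

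**Figure D5:**
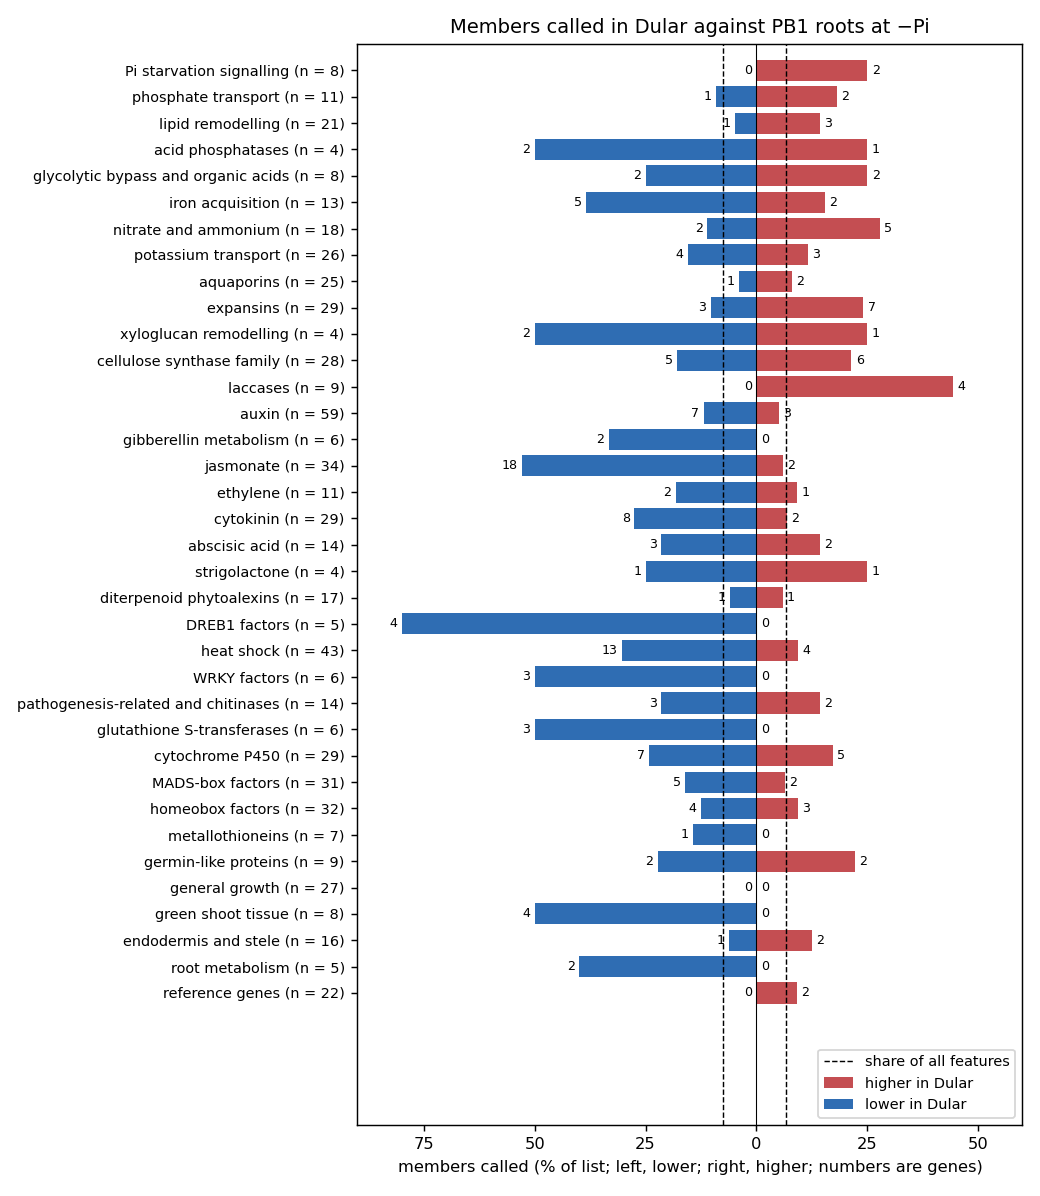
Share of each gene list called higher (right) or lower (left) in Dular than in PB1 roots at −Pi (x axis, % of the list's measured members; numbers are genes), for lists of at least 4 genes, with dashed lines at the shares over all features, 6.67% and 7.6%. All features include 18789 nearly flat ones and many without a gene name, so the dashed lines are a low base for lists of named genes. DREB1 factors, jasmonate, WRKY and glutathione S-transferase lists extend to the left, laccases to the right, and the general growth list shows no bar.

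The lists hold genes that have a symbol or were described in the study's list of genes that rose in Dular roots at −Pi. That list was chosen on these samples and leans toward genes higher in Dular at −Pi, so the counts above are not independent evidence of direction. The same limit holds for single genes named through that list alone. Every list count is to be read beside 14.3% of all features called and 5155 of 22436 features paired with 1 gene.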

How the data were processed

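RNA of roots and shoots was hybridized to Affymetrix rice genome arrays. The authors normalized the arrays by GC-RMA in GeneSpring and deposited centred log2 values, and every feature's median over the 24 arrays is 0. No detection filter was possible. limma 3.58.1 in R 4.3.3 was fitted to 8 group means over 24 arrays (3 a group), with moderated variances, a prior of 0.789 degrees of freedom and Benjamini-Hochberg adjustment over 57258 features. The number of arrays limits the precision. Calls needed a 2-fold difference and an adjusted p not above 0.05; the interaction needed the adjusted p alone. Controls were tested by exact permutation (SciPy 1.17.1, pandas 2.3.3, Python 3.11.15). The procedure was tested on simulated data.

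Genes were named from the array's annotation or the study's gene list (22436 features had 1 gene, 95 several), with current symbols from RefSeq gene names. Named genes were the 15 largest non-overlapping differences each way among features with a product name, 1 feature a gene. Without a product name, 177 features on the higher side and 135 on the lower side were at least as large as the 15th. Also named were the 8 largest interactions each way among features called at −Pi, called members of gene lists (up to 6 each way) and the Pi genes. For a gene with several features the first by suffix was used. A disease resistance list was left out, because its search words matched unrelated genes. The members and lists were chosen with earlier results of these data known. Alternatives were other scalings, other arrays in the fit, a replicate block, other variance moderation, a filter on flat features, other thresholds and leaving out each array.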

Additional observations from a re-analysis of the deposited data

Results flagged for a closer look

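The iron genes differed in their genotype difference between the Pi levels, by the interaction in the fit, with −10.51 for NAS1, −8.34 for NAS2, −7.13 for YSL15, −5.10 for NRAMP1, −3.57 for IRO3, −2.98 for IRT1 and 1.36 for VIT1. The interaction was also large for the dirigent gene Os10g18760 (6.22), the BURP gene Os06g19800 (6.18), Os04g47360 (5.88) and Os07g44920, an expressed protein of no stated function (5.69). Features with no product name gave 7.42, 6.05, 5.8 and 5.67 on the higher side and −10.68, −9.89, −6.73, −6.53 and −6.37 on the lower side. Of these unnamed features, those at −10.68 and −9.89 lost the call at −Pi when 1 array was left out (adjusted p up to 0.24 and 0.072). Across all features, 111 were called at both Pi levels in opposite directions, each with the interaction past adjusted p. Outside the gene measurements, the BioB control was higher on the Dular than on the PB1 −Pi root arrays by 4.34.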

How the results depend on the processing

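The count of features called stayed between 7792 and 8085 when 1 array was left out (3606 to 3847 higher, 4075 to 4287 lower). Quantile normalization gave 7193 (49.13% higher, against 46.76%) and the 6 −Pi root arrays alone 7823. A test against 2-fold gave 4020 (1638 higher, 2382 lower), adjusted p alone 16556 (9875 and 6681), and 1 feature a gene 4184 (1903 and 2281). The interaction passed in 5234 to 6845 features without single arrays (2944 to 3542 toward Dular, 2141 to 3514 toward PB1), with 2273 toward Dular after quantile normalization and 3104 when 2-fold was also asked (1594 and 1510). BioB ranged from 4.29 to 4.39 without single arrays. Other features of the same gene reversed Os08g17784 (1.34), GLN2 (2.00) and HSFA2C (2.88); the cause was not tested. Replicate numbers were not taken to pair the samples, since same-numbered −Pi arrays of the genotypes had correlations of deviations of 0.027, 0.056 and 0.105, and PB1 −Pi with PB1 +Pi 0.378, −0.02 and 0.4; the replicate block gave 8174 calls and 6096 interactions. Of 331 named features 253 were called, 233 of them in every fit without 1 array.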

Other observations

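Clock genes were gathered after PCL1 was seen, and are given as values only. Of 7 measured, 4 were called higher in Dular roots at −Pi and 1 lower, with a median of 1.47. PCL1 differed by 9.71, PRR1 by 1.76, GI by 1.54, PRR95 by 1.47, PRR73 by −0.25, PRR37 by −2.09 and LHY by 0.02, though another feature of LHY read −4.67.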
